A study of Mus musculus with 6 samples.

Results

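Carbonic anhydrases interconvert carbon dioxide and water with bicarbonate and a proton, at a zinc ion held in the active site. Their transcripts were followed in the livers of fasted mice with and without Acss2, the enzyme that makes acetyl-CoA from acetate outside the mitochondria. The members were chosen by name, as rows of the deposited table whose symbol is Car followed by a number and, where present, the letter a or b. Where names gave more than 10 genes, those with the highest mean level over the 6 libraries were to be selected. The names gave 7 of the 12366 listed genes, so none was dropped by level: Car1, Car2, Car3, Car5a, Car5b, Car8 and Car14. RefSeq names 16 mouse genes of this pattern, and the other 9 were not analysed here.

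All mice were C57BL/6 males raised on chow to 22 weeks of age and fasted for 48 h. The WT group held 3 libraries from wild-type livers and the Acss2-KO group 3 libraries from livers of the Acss2-/- genotype. How the null allele was made stands as not given in the sources used here. The labels number the libraries as replicates without tying each to an animal, and a p-value here therefore reflects the spread among these libraries alone, which may be partly technical. Acss2 itself was at 73.5 to 81.0 counts per 1000000 reads (CPM) in WT and at 1.37 to 3.56 CPM in Acss2-KO.

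In liver the family works in separate compartments. Cytosolic members buffer pH and hydrate carbon dioxide, mitochondrial members supply bicarbonate to carboxylating enzymes of the urea cycle and of gluconeogenesis, and membrane members act on the outer face of the cell. Car3 is an abundant cytosolic isozyme of liver, muscle and fat with a low hydration activity, Car2 a fast cytosolic isozyme of many cell types, and Car1 the major isozyme of red blood cells. Car5a and Car5b are mitochondrial, Car14 spans the plasma membrane, and Car8 is a related protein that lacks a zinc ligand and has no hydration activity.

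The promoter sequences of the mitochondrial pair are shown because both transcripts were lower in Acss2-KO and the pair shares a compartment. They are the 250 bases before the RefSeq start (GRCm38.p6), 5′ to 3′ on the strand of the gene, with matches on either strand in capitals. The letters searched were TATAAA (the TATA box), CCAAT (the CCAAT box), GGGCGG (the GC box) and the run GGCGTGG. Car5a is read from the minus strand of chr8:121944913-121945162 and Car5b from the minus strand of chrX:164028011-164028260.
Car5a: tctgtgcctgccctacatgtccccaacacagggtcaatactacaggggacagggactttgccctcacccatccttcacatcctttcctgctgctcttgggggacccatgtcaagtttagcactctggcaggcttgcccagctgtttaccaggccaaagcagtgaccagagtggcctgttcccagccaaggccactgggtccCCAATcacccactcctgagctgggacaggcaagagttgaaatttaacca
Car5b: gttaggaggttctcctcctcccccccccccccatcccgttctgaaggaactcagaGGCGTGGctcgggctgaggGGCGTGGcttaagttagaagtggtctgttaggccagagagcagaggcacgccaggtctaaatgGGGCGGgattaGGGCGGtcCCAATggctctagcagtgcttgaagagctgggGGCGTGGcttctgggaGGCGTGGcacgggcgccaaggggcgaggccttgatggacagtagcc
Of the letters searched, the windows share only CCAAT, which begin 49 bases before the start in Car5a and 94 bases before it in Car5b and stand in 33.8% of 32851 promoter windows of this length. Car5b also holds 4 matches to GGCGTGG, and 0.0426% of the windows hold 4 or more. These letters were chosen after the window was read, so that share is no measure of how unusual the window is. It holds 2 matches to GGGCGG, which 32.7% of windows hold at least once, and neither window holds TATAAA, found in 12.4%. G and C make up 56% of the Car5a window and 63.6% of the Car5b window, against a median of 52.4% over all windows. Promoter windows matched 3 of the 7 members, the third being Car14, which is not printed.

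Car3, the cytosolic isozyme of liver, muscle and fat, was lower in every Acss2-KO library by a wide margin. Its WT libraries held 969, 879 and 431 CPM and its Acss2-KO libraries 8.34, 8.63 and 3.03 CPM, for replicates 1 to 3. The groups did not overlap, and WT replicate 3 lay well below the other WT libraries. Mean Car3 was 759 ± 288 CPM in WT and 6.67 ± 3.15 CPM in Acss2-KO (SD, n = 3 each). Levels were compared on log2(CPM + 1), which understates the change of low genes, with limma across the 9355 genes whose mean was at least 5 CPM. Car3 was 101-fold lower (log2 fold change -6.65, SE 0.42, 95% interval -7.64 to -5.67, limma adjusted p = 0.00017). Among the 9355 tested genes its log2 fold change was the second lowest.

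**Figure D1:**
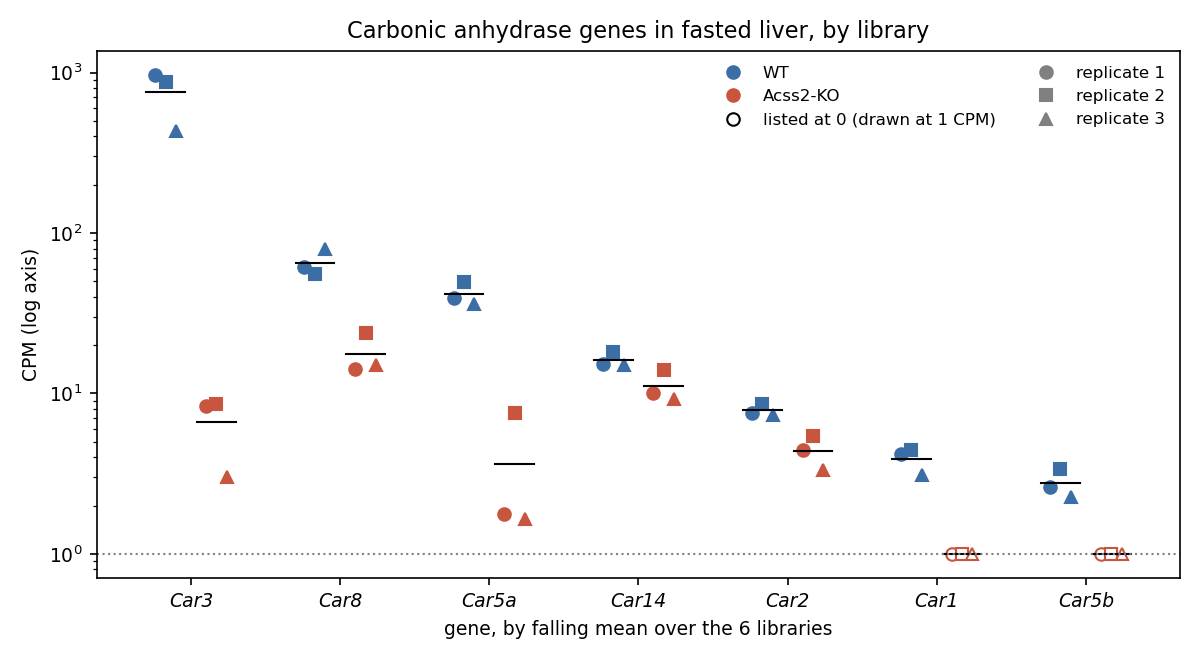
CPM (log axis) of the 7 carbonic anhydrase genes in each library, WT in blue and Acss2-KO in red, with the replicate as the symbol and the group mean as a bar; open symbols are values listed at 0, drawn at 1 CPM. Car3 drops from between 431 and 969 CPM to under 9 CPM, and Acss2-KO replicate 2 is the highest Acss2-KO library for each of the 5 genes with values above 0 there.

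The mitochondrial members were lower in Acss2-KO. Car5a was at 39.4, 49.5 and 36.3 CPM in WT and at 1.78, 7.52 and 1.65 CPM in Acss2-KO. The groups did not overlap, and Acss2-KO replicate 2 held 4.56 times the level of replicate 3. The fall was 10.7-fold (log2 fold change -3.42, SE 0.44, 95% interval -4.43 to -2.40, limma adjusted p = 0.00189). The level was 41.7 ± 6.93 CPM (SD, n = 3) in WT and 3.65 ± 3.35 CPM (SD, n = 3) in Acss2-KO. At the estimated depths of 21.8 to 30.8 M reads, the Acss2-KO values rest on about 51, 192 and 36 reads.

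Car5b, the second mitochondrial isozyme, had WT values of 2.60, 3.39 and 2.27 CPM, and each of the 3 Acss2-KO values is listed at 0. A listed 0 stands for less than 1 CPM, and 1 CPM is 21.8 to 28.6 reads at the depths of these Acss2-KO libraries, so reads may be present. Its mean was below 5 CPM and it was not tested, and no fold is given. In the authors' deposited table its log2 fold change is -2.17 with an adjusted p of 8.5e-06, and that of Car5a is -3.34 with 4.1e-15. Of all listed genes, 14.7% are lower there at an adjusted p under 0.05.

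Car8, the member without hydration activity, fell by less than Car5a. It was at 61.0, 55.7 and 79.3 CPM in WT and at 14.2, 23.9 and 15.0 CPM in Acss2-KO. The groups did not overlap, and Acss2-KO replicate 2 was again the highest of its group. The fall was 3.59-fold (log2 fold change -1.85, SE 0.23, 95% interval -2.37 to -1.32, limma adjusted p = 0.00107), from 65.3 ± 12.4 to 17.7 ± 5.38 CPM (SD, n = 3 each).

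Among the other cytosolic members, Car2 was lower by a smaller amount and Car1 was listed at 0 without Acss2. Car2 was at 7.57, 8.57 and 7.36 CPM in WT and at 4.41, 5.39 and 3.34 CPM in Acss2-KO. The groups did not overlap, and the fall was 1.66-fold (log2 fold change -0.73, SE 0.20, 95% interval -1.18 to -0.28, limma adjusted p = 0.0215). With quantile scaling the Car2 call was lost (limma adjusted p = 0.0983). Leaving out Acss2-KO replicate 3 ended it too (0.0926), as did leaving out WT replicate 1 (0.0618) or WT replicate 2 (0.0724). The authors' deposited table gives Car2 a log2 fold change of -0.68 and an adjusted p of 0.17.

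Car1 was at 4.17, 4.41 and 3.10 CPM in WT, about 120, 136 and 72 reads. It was listed at 0 in each Acss2-KO library and, with a mean below 5 CPM, was not tested. In the authors' deposited table its log2 fold change is -5.39 with an adjusted p of 1.4e-19. Of all 12366 listed genes, 1.94% were above 0 in the 3 WT libraries and at 0 in the 3 Acss2-KO libraries, as Car1 and Car5b were.

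Car14, the membrane isozyme, did not pass the test. It was at 15.2, 18.0 and 15.0 CPM in WT and at 10.1, 13.9 and 9.25 CPM in Acss2-KO. The groups did not overlap, and WT replicate 3 and Acss2-KO replicate 2 lay closest. The log2 fold change was -0.51 (SE 0.19, 95% interval -0.94 to -0.08, limma adjusted p = 0.0627), so a fall of 1.92-fold and one of 1.06-fold both lie inside the unadjusted interval. Without Acss2-KO replicate 2 it passed (log2 fold change -0.67, limma adjusted p = 0.0151).

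In all, 4 of the 5 tested members fell and 0 rose, and 23.1% of all tested genes fell and 13.4% rose by the same rule. The split over all genes was 2161 lower and 1252 higher, and with median-of-ratios scaling it was 1681 lower and 1753 higher. The 3 largest falls, of Car3, Car5a and Car8, lie below the 5th percentile of all tested genes (-1.49), while Car2 and Car14 lie within the range of most genes. Car5a and Car2 had Acss2-KO means of 3.65 and 4.38 CPM and reached the minimum of 5 CPM through their WT level, and Car1 and Car5b were above 0 in WT alone, so the count is a description. Over all 7 members, every Acss2-KO library was below every WT library, which held for 33.7% of all listed genes and, as for the 5 tested members, for 32.8% of the tested ones. Car3, Car5a and Car8 kept their call in each fit that left out 1 library. In a fit without the pair WT replicate 2 and Acss2-KO replicate 1, Car3 and Car8 kept it and Car5a (limma adjusted p = 0.0655) and Car2 (0.0741) did not. The count over all tested genes was 3413 (36.5%), which became 2203 when WT replicate 1 was left out, 2196 for WT replicate 2 and 1717 for Acss2-KO replicate 3.

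**Figure D2:**
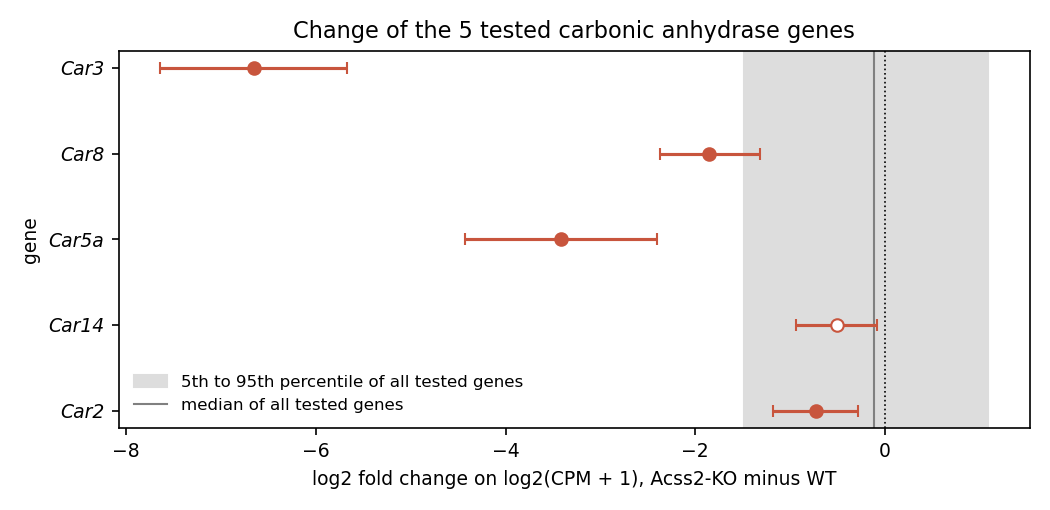
Log2 fold change on log2(CPM + 1) of the 5 tested genes, Acss2-KO minus WT, with 95% intervals; filled points passed the test, the grey band spans the 5th to 95th percentile of all tested genes (-1.49 to 1.09) and the grey line is their median (-0.12). Car3 at -6.65, Car5a at -3.42 and Car8 at -1.85 lie below the band.

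Levels of different genes were compared per kb of the longest GENCODE M1 transcript, between 1180 bases for Car1 and 3848 bases for Car8. In WT the order was Car3 (504 ± 191 CPM per kb), Car5a (33.4 ± 5.55), Car8 (17 ± 3.22), Car14 (9.42 ± 0.97), Car2 (4.38 ± 0.36), Car1 (3.30 ± 0.59) and Car5b (0.80 ± 0.17) (SD, n = 3). Each step of this order was larger than the SDs beside it. In Acss2-KO the order was Car14 (6.50 ± 1.45 CPM per kb), Car8 (4.61 ± 1.40), Car3 (4.42 ± 2.09), Car5a (2.92 ± 2.68) and Car2 (2.45 ± 0.57), and neighbours from Car8 down to Car2 lay within their SDs. The place of Car8 rested on the length used, since its longest transcript is 3848 bases and its coding part 876 bases. Per kb of coding length, a measure added after the data were seen, Car8 (74.6 ± 14.2 CPM per kb) stood above Car5a (46.4 ± 7.70) in WT. On that measure Car8 was also the highest in each Acss2-KO library, at 20.2 ± 6.14 CPM per kb against 10.9 ± 2.45 for Car14 and 8.52 ± 4.03 for Car3 (SD, n = 3). Car3 led each WT library by both lengths and led no Acss2-KO library by either, where Car14 led by transcript length and Car8 by coding length.

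The sum of the 7 genes per kb was 708, 658 and 352 CPM per kb in the WT libraries. It was 20.2, 30.3 and 15.7 CPM per kb in the Acss2-KO libraries, with Car1 and Car5b counted at their ceiling of 1 CPM. Car3 made up 86.9 ± 5.03% of the sum in WT and 19.7 ± 7.32% in Acss2-KO, and Car14 made up 1.79 ± 0.64% and 30.3 ± 3.91% (SD, n = 3). Per coding length the share of Car3 was 84.8 ± 6.57% in WT and 16.2 ± 6.37% in Acss2-KO, where Car8 held the largest share (39.5 ± 4.90%) and Car14 held 21.6 ± 1.97% (SD, n = 3). Without Car3 the sum was 68.3 ± 5.13 and 17.6 ± 6.02 CPM per kb. The spread of the WT sums came with Car3: the sums without it were 64.8, 74.2 and 65.8 CPM per kb.

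**Figure D3:**
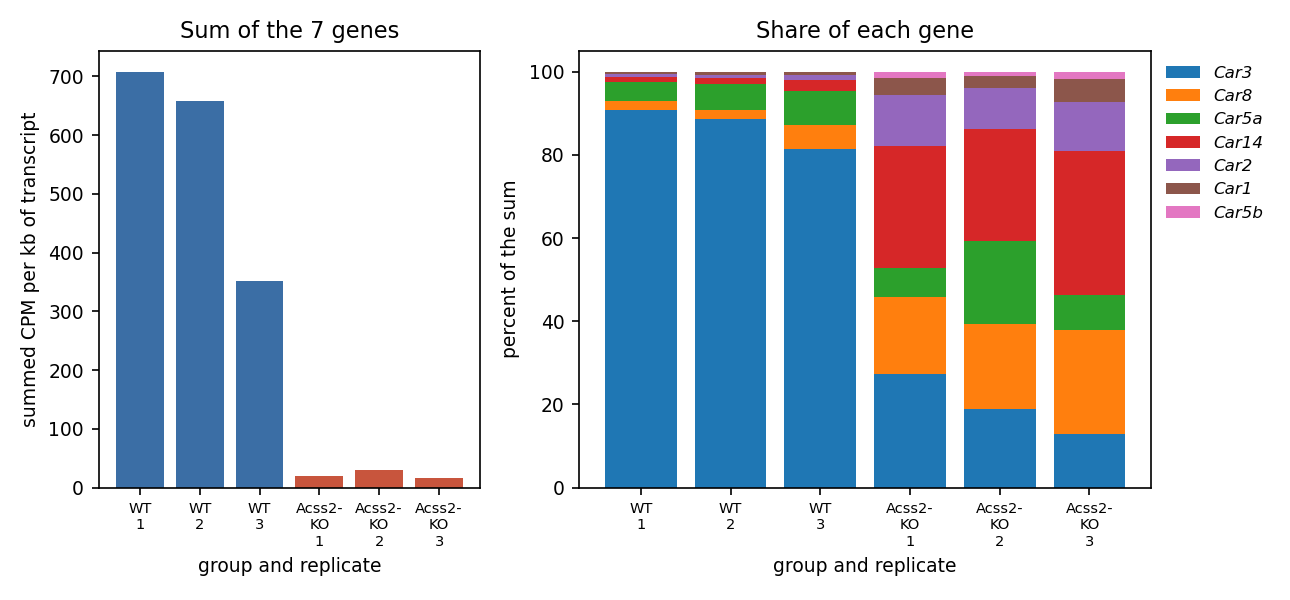
Left, the summed level of the 7 genes in each library (CPM per kb of transcript, bars from 0); right, the percent of that sum from each gene. Car3 holds 81.3 to 90.8% of the sum in the WT libraries and 12.8 to 27.4% in the Acss2-KO libraries, where Car14 holds 26.9 to 34.6%; per coding length, not drawn, Car8 holds the largest share there (34.7 to 44.5%).

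The Acss2-KO libraries did not share 1 level. Replicate 2 was the highest of the 3 for Car3, Car5a, Car8, Car14 and Car2, and it was also the highest for 74.1% of the 2161 genes that fell. On the leading principal component of all tested genes it scored 16.95, against 62.40 and 43.97 for replicates 1 and 3 and between -45.56 and -37.96 for WT. Within WT, replicate 3 was the lowest for Car3, Car5a, Car14, Car2, Car1 and Car5b and the highest for Car8. For Car14 (15.0 against 15.2 CPM in replicate 1) and Car2 (7.36 against 7.57 CPM) the margin was small.

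Signals of other cells and of liver zones moved beside these genes. In whole liver, fewer cells of a type and less RNA per cell cannot be told apart. Beside Car1 and Car2, 5 of 6 tested red cell genes fell and 0 rose, against 23.1% lower and 13.4% higher over all tested genes. The 7 listed red cell genes summed to between 179 and 300 CPM in WT and between 55.5 and 85.8 CPM in Acss2-KO. The defining genes Hbb-bs (74.5 to 141 and 23.4 to 37.5 CPM) and Alas2, the first enzyme of heme synthesis in red cells (42.5 to 60.1 and 5.28 to 10.8 CPM), were both lower. The part of red cells in the Car1 and Car2 values was not tested.

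Skeletal muscle, a tissue rich in Car3, left a signal in 1 library. The 11 listed muscle genes summed to 581 CPM in Acss2-KO replicate 1 and to between 14.9 and 24.5 CPM in the other 5 libraries, and 9 of the 11 were listed at 0 in Acss2-KO replicate 2. Car3 was at 8.34 CPM in the former and 8.63 CPM in the latter. In Acss2-KO replicate 3, where the muscle genes summed to 24.5 CPM, Car3 was at 3.03 CPM. The part of muscle in the Car3 values was not tested. Of the adipocyte genes, another source of Car3, 7 were listed and summed to 62.1 to 81.4 CPM in WT and 47.5 to 100 CPM in Acss2-KO. Among the 4 tested, 2 were lower and 1 higher, against 23.1% lower and 13.4% higher over all tested genes. Adipoq, Lep, Retn and Plin1 were not analysed here. Genes of stomach and pancreas, 5 of the 10 on the list, summed to 3258 CPM in WT replicate 2, to 680 CPM in Acss2-KO replicate 1 and to 15.1 to 284 CPM elsewhere. The values without both libraries are given above.

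Cholangiocyte genes, markers of the bile duct, where Car2 is also found, had 1 higher (Sox9) and 1 lower (Spp1) among 4 tested. The 6 listed genes summed to 61.8 to 93.1 CPM in WT and 47.2 to 52.9 CPM in Acss2-KO. Hepatocyte genes were present in each library, and the 9 listed summed to 99763 to 119297 CPM in WT and 113322 to 126844 CPM in Acss2-KO, with 2 higher and 2 lower. Markers of hepatocytes near the central vein fell in 9 of 11 tested cases and none rose, and their sum was 15883 to 21822 CPM in WT. In Acss2-KO replicates 1, 2 and 3 that sum was 7135, 11105 and 7178 CPM, of which Cyp2e1 held 5043, 8719 and 5634 CPM. The sum was thus highest in replicate 2, as were Car5a, Car8 and 74.1% of the 2161 genes that fell. Within the list Glul (744, 413 and 347 CPM), Slc1a2 (160, 105 and 51.6 CPM), Lhpp and Axin2 were highest in replicate 1, and the other markers in replicate 2. Markers of periportal hepatocytes rose in 8 of 13 cases and fell in 1. The counts of these bile duct, hepatocyte and zone markers stand against 23.1% lower and 13.4% higher over all tested genes. The part of zonation in the carbonic anhydrase values was not tested.

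Genes that use bicarbonate held called genes in both directions, in about the shares found over all tested genes (23.1% lower and 13.4% higher). Of 10 genes of bicarbonate-using enzymes, the biotin ligase of the carboxylases among them and all tested, 2 rose and 3 fell, and the median log2 fold change was -0.24 against -0.12 for all tested genes. Cps1, which builds carbamoyl phosphate from mitochondrial bicarbonate, was at 2077 to 2837 CPM in WT and at 10441 to 12944 CPM in Acss2-KO (log2 fold change 2.23, SE 0.21, limma adjusted p = 0.000394). Every library of Acss2-KO thus held more Cps1 and less Car5a than every WT library, and 18.5% of all listed genes were higher and 33.7% lower without overlap. Cps1 is also on the periportal list and is counted among the 8 of its genes that rose. Pcx, the pyruvate carboxylase that shares that bicarbonate pool, was at 671 to 1209 CPM in WT and 826 to 1090 CPM in Acss2-KO, with overlapping groups (log2 fold change -0.03, SE 0.27, limma adjusted p = 0.947). Its sign turned in 7 of the 16 alternative fits.

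The acetyl-CoA carboxylases moved apart. Acacb, the isozyme at the mitochondrial surface, rose from 57.4 ± 10.3 to 143 ± 26.0 CPM (SD, n = 3 each) (log2 fold change 1.30, limma adjusted p = 0.00297). Acaca, the cytosolic isozyme of fatty acid synthesis, fell from 70.8 ± 14.5 to 32.9 ± 13.3 CPM (log2 fold change -1.13, limma adjusted p = 0.0142), a call lost without Acss2-KO replicate 3 (0.0625). Mccc2 of leucine breakdown (log2 fold change -0.66, limma adjusted p = 0.048) and Pccb of propionyl-CoA breakdown (-0.58, 0.0444) fell, and both calls were lost under the median-of-ratios (0.0953 and 0.0873), upper-quartile and quantile scalings. Leaving out 1 library ended the call of Mccc2 for every library but Acss2-KO replicate 2 (adjusted p between 0.0907 and 0.149), and that of Pccb for every library but that one and WT replicate 3 (0.123 to 0.143). Their partner subunits Mccc1 (-0.44, 0.112) and Pcca (-0.57, 0.103), the ligase Hlcs (-0.03, 0.935) and Cad of pyrimidine synthesis (0.41, 0.186) did not pass. Mccc1 (0.0375) and Pcca (0.0267) passed without Acss2-KO replicate 2.

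Bicarbonate transporters showed 1 rise and 1 fall among 5 tested genes, with a median log2 fold change of 0.05, against 13.4% higher and 23.1% lower over all tested genes. Slc26a1, a sulfate and bicarbonate exchanger of the hepatocyte, was at 165 ± 41.0 CPM in WT and fell to 67.5 ± 19.3 CPM in Acss2-KO (SD, n = 3 each; log2 fold change -1.28, SE 0.27, limma adjusted p = 0.00826). Slc4a7, a sodium bicarbonate cotransporter, was at 6.28 to 7.57 CPM in WT and at 19.4, 8.75 and 19 CPM in Acss2-KO (0.98, SE 0.28, limma adjusted p = 0.0263), and its call was lost on leaving out any library but Acss2-KO replicate 2 (adjusted p between 0.056 and 0.103). Slc4a4, another sodium bicarbonate cotransporter, was at 140 to 241 CPM in WT and 165 to 256 CPM in Acss2-KO and did not pass (limma adjusted p = 0.747).

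Among sodium-proton exchanger genes 2 of 5 tested fell and 0 rose, and 23.1% of all tested genes fell. Both are scaffold proteins that bind exchangers and not exchangers themselves, Slc9a3r1 (log2 fold change -1.35, limma adjusted p = 0.00338) and Slc9a3r2 (-0.71, 0.0112, and 0.0507 without WT replicate 2 or 0.056 without Acss2-KO replicate 3). Among the water, ammonia and carbon dioxide channels 3 of 5 tested fell and 0 rose (median log2 fold change -1.13, against -0.12 for all tested genes). Aqp9 carries glycerol into hepatocytes (-1.13, limma adjusted p = 0.00659), Aqp8 is a water and ammonia channel (-2.24, 0.033) and Aqp4 a water channel (-1.35, 0.0265). The Aqp8 and Aqp4 calls were each lost without any 1 of the WT libraries or without Acss2-KO replicate 3 (adjusted p between 0.0533 and 0.127).

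**Figure D4:**
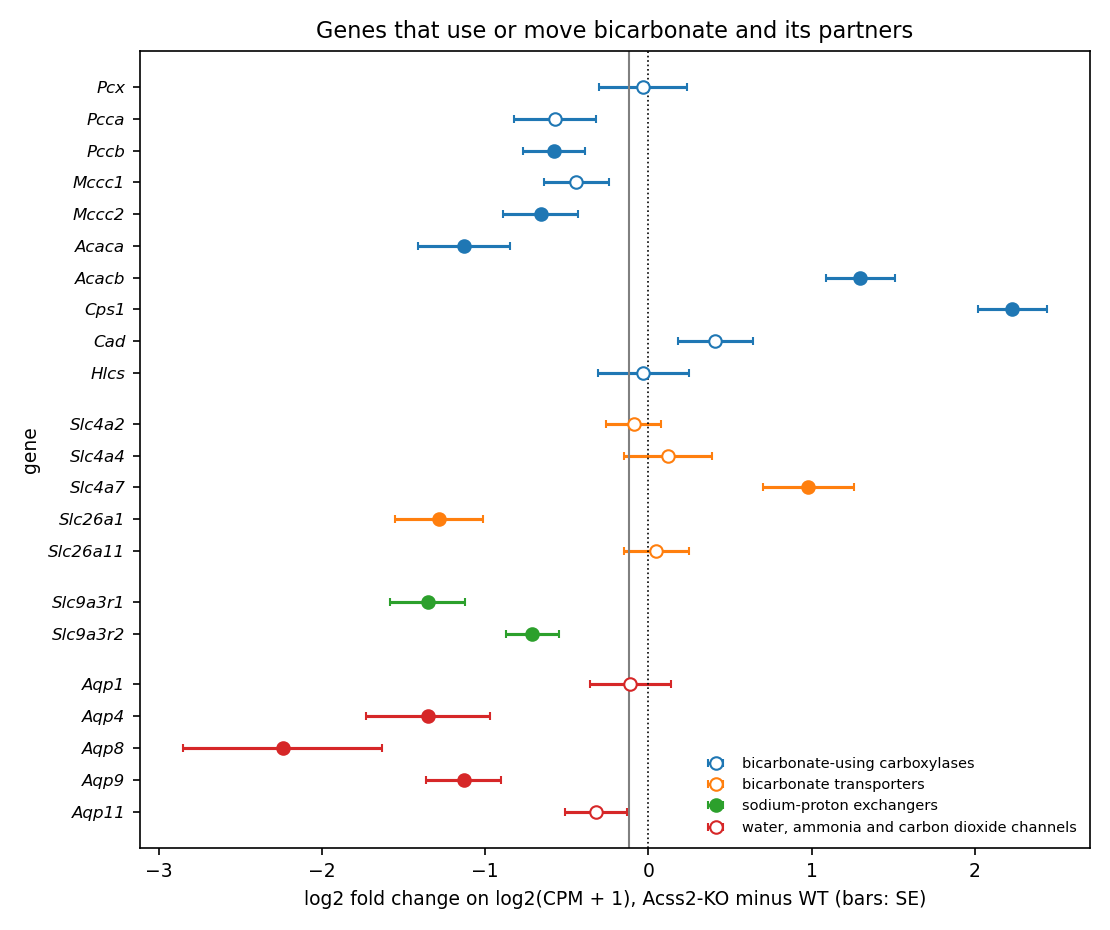
Log2 fold change on log2(CPM + 1) with its SE for the tested genes of 3 lists and the called genes of the sodium-proton exchanger list, Acss2-KO minus WT; filled points passed the test and the grey line is the median of all tested genes (-0.12). Cps1 (2.23) and Acacb (1.30) lie to the right, and Aqp8 (-2.24), Aqp4 (-1.35), Slc9a3r1 (-1.35) and Slc26a1 (-1.28) to the left.

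Car1, Car3 and Car2 lie in a row on chromosome 3, within 135 kb. In the deposited coordinates, taken as GRCm38, Car1 (ENSMUSG00000027556) spans 14766216 to 14808368, Car3 (ENSMUSG00000027559) 14863512 to 14872523 and Car2 (ENSMUSG00000027562) 14886273 to 14900770. The gap between Car3 and Car2 is 13.8 kb, and the log2 fold changes on its sides were -6.65 and -0.73. The other tested genes that start within 500 kb of Car3, E2f5 (0.31, limma adjusted p = 0.30) and 1810022K09Rik (-0.01, 0.989), did not pass. In these windows the start of a neighbour is its lower coordinate, on either strand. Car14 (ENSMUSG00000038526, 95897768 to 95904691) lies farther along the chromosome. Of 19 tested genes starting within 500 kb of it, 1 rose and 5 fell, against 13.4% higher and 23.1% lower over all tested genes. The gene that rose was the clock gene Ciart (2.73, limma adjusted p = 0.000235). Car8 (ENSMUSG00000041261) is on chromosome 4 at 8143362 to 8239041, and of the 2 tested genes that start within 500 kb of its span the chromatin remodeller gene Chd7 rose (0.85, limma adjusted p = 0.00592).

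Car5a (ENSMUSG00000025317) is on chromosome 8 at 121916126 to 121944904. The nearest gene past its start, Banp, lies 4.85 kb away and fell as well, from 11.5 to 12.7 CPM in WT to 2.93 to 4.96 CPM in Acss2-KO (log2 fold change -1.47, SE 0.20, limma adjusted p = 0.00147). Over the 10 tested genes starting within 500 kb of Car5a, 2 rose and 3 fell, against 13.4% higher and 23.1% lower over all tested genes. The antisense gene BC048644 overlaps 2303 bases of Car5a and the sense intronic gene Gm26999 lies within it, at 1.04 to 2.75 CPM and 1.33 to 2.36 CPM in WT and listed at 0 in Acss2-KO. Car14 shares 521 bases with Aph1a, at 31.3 to 35.8 CPM in WT and at 19.2, 48.5 and 44.3 CPM in Acss2-KO, highest in replicate 2 as Car14 was. The use of strand in counting was not given in the sources used here, so reads in these overlaps cannot be told apart. Car5b (ENSMUSG00000031373) is on chromosome X at 163976822 to 164027997.

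**Figure D5:**
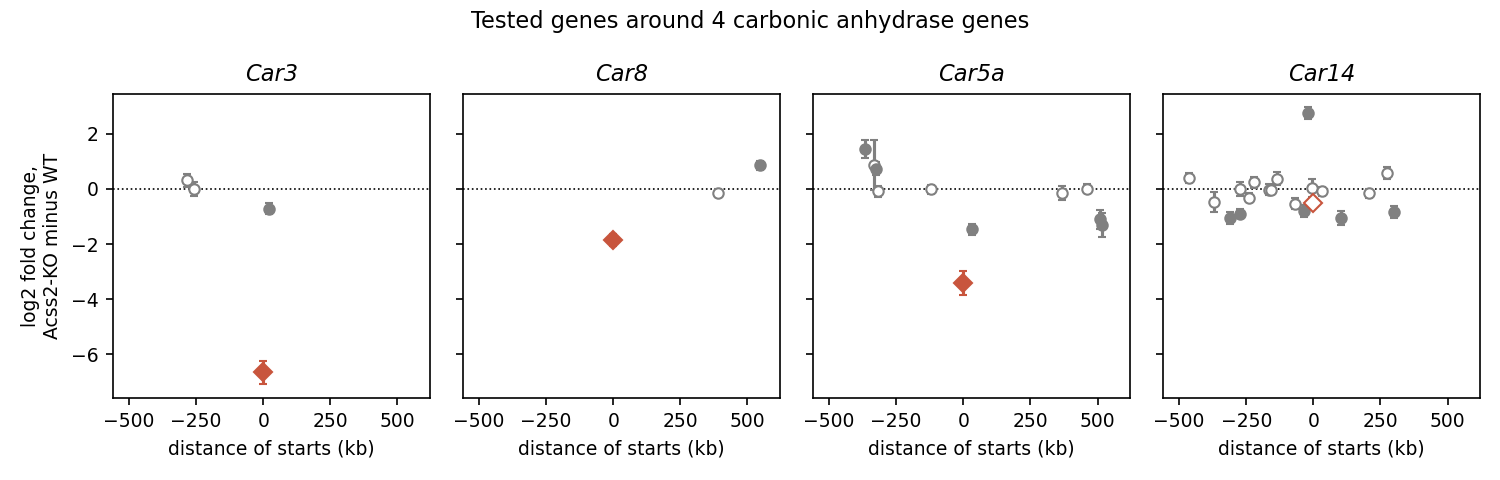
Log2 fold change (Acss2-KO minus WT, with SE) of tested genes by the distance in kb of their lower coordinate from that of Car3, Car8, Car5a or Car14. Strand is not used, so Banp is drawn 33.6 kb from Car5a, a gene of the minus strand. The red diamond is the carbonic anhydrase gene and filled symbols passed the test. Car3 at -6.65 stands beside Car2 at -0.73, and Car5a at -3.42 beside Banp at -1.47.

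Profiles over the 6 libraries were compared by the root-mean-square difference of log2(CPM + 1), each gene centred on its own mean, as a description without a test. Nearest to Car3 were Mup19, a urinary pheromone carrier of a multigene family, with an uncertain share of reads (0.63), Serpina6, the corticosteroid carrier of plasma (0.69), the methyltransferase gene Inmt (0.76), the calcium-binding protein gene Rgn (0.97) and Acss2 (1.22). Mup19 was listed at 0 in each Acss2-KO library, so its values there rest on the floor of 1 CPM. Rgn is also on the list of markers of hepatocytes near the central vein. Serpina6 was at 304, 231 and 95.7 CPM in WT and 3.71, 6.82 and 1.69 CPM in Acss2-KO, lowest in the same library of each genotype as Car3. Nearest to Car8 were Nqo2, a quinone reductase (0.062), and Nrn1, neuritin (0.083). Nearest to Car5a were Fitm1, a protein of fat storage (0.24), and Cml2 (0.27). Fitm1 was at 1.54, 10.1 and 2.85 CPM in Acss2-KO, highest in replicate 2 as Car5a was. For Car14 they were Hp, haptoglobin (0.052), and Abhd12 (0.058), and for Car2 they were Traf2 (0.058) and Gstm7 (0.092). Among the members themselves Car14 and Car2 were nearest (0.13) and Car3 and Car14 farthest apart (3.10).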

How the data were processed

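Liver RNA was extracted with Trizol and made into 6 libraries using Illumina's TruSeq RNA chemistry (per the labels). The deposited table holds log2 CPM per gene and library, rounded by the authors to 2 decimals, with values under 1 CPM listed at 0. The unit was read from the values, since the values of a library, taken out of log2, add up to 997061 to 997856. The authors' deposited log2 fold changes and adjusted p-values were made with a tool not given in the sources used here. The submitters' processing notes name Bowtie 0.12.2 and mm8 without saying their use. Gene starts lie a median of 8 bases from those of GRCm38.p6 (11621 genes). Depth was estimated from the steps of low values, at 28.8, 30.8 and 23.3 M reads for WT and 28.6, 25.6 and 21.8 M for Acss2-KO.

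A listed 0 was set to 1 CPM. Testing used limma 3.58.1 (R 4.3.3, robust, with trend) on log2(CPM + 1) for genes averaging 5 CPM or more, with all 6 libraries, no covariate, Benjamini-Hochberg over 9355 genes, threshold 0.05. The procedure was tested on simulated data. Members, gene lists, tests and alternatives were chosen with earlier results of these data known. Named genes are every member, up to 4 called genes per pathway list and each carboxylase, marker genes, neighbours that start within 500 kb of a member's span, and the 5 (Car3) or 2 profiles nearest to a tested member; other genes, such as Slc4a4, were chosen after their values were seen. Some genes of the exchanger list are not reported here. Transcript and coding lengths are from the longest GENCODE M1 transcript of each gene.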

Additional observations from a re-analysis of the deposited data

How the results depend on the processing

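Over 16 alternatives, none turned the direction of a tested carbonic anhydrase gene: of 78 values, 71 kept their side of the threshold, 6 lost the call (5 for Car2, 1 for Car5a) and 1 gained it (Car14). The number of members lower in Acss2-KO was 4, 3 to 5 on leaving out 1 library, and 2 without WT replicate 2 and Acss2-KO replicate 1. Without a filter it was 6, since Car1 and Car5b then entered. Their Acss2-KO values are all set to 1 CPM, with an SD of 0, so these added calls rest on the floor and not on a measured spread. No member was higher in any setting. Over all genes 3413 were called, 1717 to 3997 on leaving out 1 library, 1993 without those libraries together, and 1853 at a minimum of 20 CPM, where fewer genes were tested. Across tested genes the median log2 change was -0.12 on CPM, 0.008 with median-of-ratios scaling, -0.03 with upper-quartile scaling and 0.024 with quantile scaling. Lower genes were 63.3% of those called on CPM and 49%, 52.2% and 47.5% with these scalings. The log2 fold change of Pcx was 0.105, 0.0666 and 0.0768 with them, -0.30 to 0.12 on leaving out 1 library, and 0.23 without WT replicate 2 and Acss2-KO replicate 1. That of Hlcs was 0.0903, 0.0547 and 0.11, then -0.28 to 0.20, and 0.35. The cause was not tested.

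The replicate number as a block left 4 members lower and called 3397 genes, and it ended the call of Pccb (limma adjusted p = 0.0627). With the block the SE went from 0.42 to 0.19 for Car3 and from 0.44 to 0.27 for Car5a. It stayed near its value for Car8 (0.231 and 0.235), Car14 (0.191 and 0.189) and Car2 (0.20 and 0.218). Deviations of same-numbered libraries correlated at -0.10, -0.14 and 0.09, and those of differently numbered libraries at between -0.146 and 0.175. Whether same-numbered libraries share more than a number was not tested and cannot be read from these values. Car1 and Car5b, below 5 CPM in WT, lay close to the 1 CPM under which values are listed at 0, which limits what they can show.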
